A study of Homo sapiens with 12 samples.

Results

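The genes described here encode the subunits of the transcription factor NF-kB and the proteins that hold it in check: NFKB1, NFKB2, REL, RELA, RELB, NFKBIA, NFKBIB, NFKBIE, TNFAIP3 and BIRC3. Members were every array probe named for one of these 10 symbols, whatever its level. The probe table names 13 probes of 9 of the genes among the 48803 probes of each array, which cover 18665 genes in all, and it names none for BIRC3, which was not analysed here. The RNA came from U2OS, a human osteosarcoma line with functional p53, in 6 groups of 2 arrays. Cells received a scramble siRNA (siCtl), siRNAs against the co-repressor NCoR (siNCoR) or siRNAs against the related co-repressor SMRT (siSMRT), and were kept for 2 days in complete medium. They were then left untreated or given 100 µM cisplatin (CDDP), a platinum drug that crosslinks DNA, for 6 h. All groups share the transfection, so no group is of untransfected cells, and all come from 1 cell line. The 2 arrays of a group are biological replicates, and p values measure the spread between such pairs.

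NF-kB is a dimer of Rel-homology proteins. In resting cells inhibitors of the IkB family hold most dimers in the cytoplasm, and a stimulus makes the IkB kinase complex mark those inhibitors for degradation, after which the dimer enters the nucleus and binds kB sites in DNA. Several of its targets are its own inhibitors, so that the pathway shuts itself off, and DNA damage can switch it on through the kinase ATM. NCoR and SMRT are co-repressors that bring histone deacetylase to transcription factors, NF-kB among them. The arrays measure transcripts only, not the location, cleavage or binding of the proteins.

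Signals are given as log2 of the probe intensity after background correction and quantile normalization, and a probe was tested where the 2 arrays of any 1 group had signals above a floor of 100. Of the 13 member probes, 11 passed, with at least 1 for each of the 9 genes, among 14801 probes on the array. The other two were an NFKB2 probe (ILMN_2247868), at normalized intensities of 49.3 to 55.5, and a REL probe (ILMN_2124064), at 70.2 to 87.0, and neither is described further. The kept REL probe passed the floor only through the untreated siSMRT arrays, where it is highest. Array medians of the deposited intensities lie between 54.0 and 65.3, and 27.0% to 31.4% of probes exceed the floor, so the probes of NFKB2, REL, RELB, RELA, NFKBIB, NFKBIE and TNFAIP3, with normalized intensities of at most 288, were read near the floor. Only NFKB1 and NFKBIA, at 666 and above, lay well clear of it. Mesenchymal markers passed the floor for 7 of 8 genes, with VIM at 21800 to 25400 and FN1, the exception, at 58.1 to 76.7. EPCAM passed among 3 epithelial markers, and CD14 and CD68 among 5 marker genes of blood cells with a probe, while PTPRC, CD79A and CD3E stayed below the floor.

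The DNA in front of these genes was searched for kB sites, and 4 of the stretches that hold a match are printed as examples. RefSeq start sites gave 13 windows of 300 bases for 8 of the 10 genes, each reaching from 250 bases before the start to 50 after it. Windows of 7 of these 8 genes hold the kB consensus, a motif of 10 bases searched on both strands with overlapping matches kept, and the RELA windows hold no match. Among all genes with a window, 7.09% have a match, and among all 35116 windows 5.91%. A match is a run of letters, and no binding was measured. The stretches are the 150 bases directly before the start site on the gene's own strand in GRCh38.p14, with the letters of matches in capitals: NFKBIA at chr14:35404750-35404899 on the minus strand, TNFAIP3 at chr6:137867109-137867258, NFKB1 at chr4:102501209-102501358 and NFKB2 at chr10:102394428-102394577, the last 3 on the plus strand.
NFKBIA: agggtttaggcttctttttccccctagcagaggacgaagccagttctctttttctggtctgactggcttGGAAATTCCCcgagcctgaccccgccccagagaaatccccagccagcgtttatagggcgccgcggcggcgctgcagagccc
TNFAIP3: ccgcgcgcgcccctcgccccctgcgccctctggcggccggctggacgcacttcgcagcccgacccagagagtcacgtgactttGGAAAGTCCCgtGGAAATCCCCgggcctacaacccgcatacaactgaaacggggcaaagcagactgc
NFKB1: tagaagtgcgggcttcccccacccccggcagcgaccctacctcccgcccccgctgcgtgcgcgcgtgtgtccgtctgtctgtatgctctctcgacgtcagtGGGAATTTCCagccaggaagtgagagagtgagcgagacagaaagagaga
NFKB2: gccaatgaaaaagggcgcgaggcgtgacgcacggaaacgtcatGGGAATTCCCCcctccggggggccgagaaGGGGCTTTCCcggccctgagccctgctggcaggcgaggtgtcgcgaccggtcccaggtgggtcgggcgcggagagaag

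In the TNFAIP3 stretch the matches begin 67 and 55 bases before the start site, in NFKBIA 81 bases before it and in NFKB1 49 bases before it. The first run of capitals in NFKB2 joins overlapping matches that begin 107 and 106 bases before the start, the former a palindrome that matches on both strands. REL carries GGGAAATTCC and, 1 base further on, GGAAATTCCC, from 47 bases before its start, and NFKBIB carries GGGAATTTCC and GGAATTTCCC from 28 bases before its start. Genes with a match therefore include one whose signal was lower under CDDP (NFKB1), several whose signal was higher (TNFAIP3, NFKBIA) and REL, which was lower in 1 siRNA group.

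**Figure D1:**
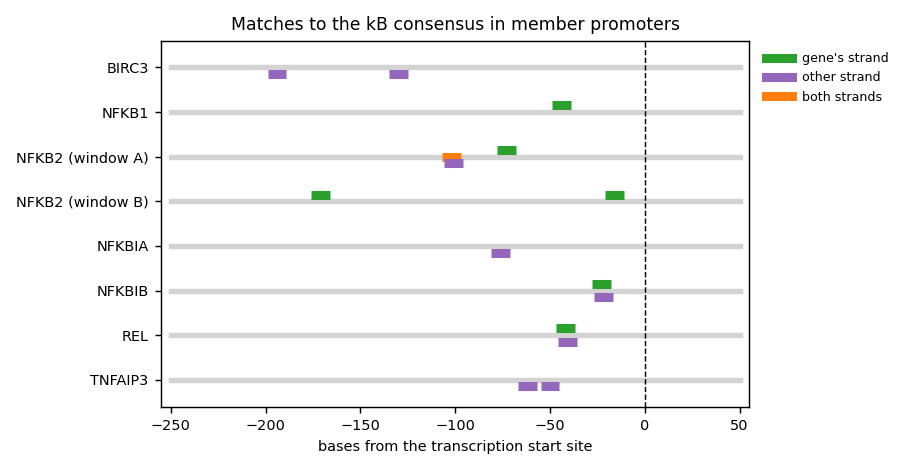
Position of each match to the kB consensus in the 300-base windows that hold one, in bases from the transcription start site (dashed line). Each grey line is 1 window, coloured blocks are matches above the line (the gene's strand), below it (the other strand) or on it (both strands), and NFKB2 has windows A, whose upstream part is printed in the text, and B. Matches of NFKB1, NFKBIA, NFKBIB, REL and TNFAIP3 begin between 81 and 27 bases before the start.

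The effect of CDDP was read within each siRNA group. In siCtl cells NFKB1, the precursor subunit, fell, and the inhibitors TNFAIP3, NFKBIA and NFKBIB (1 of its 2 probes) rose. In siNCoR cells NFKB1 fell again and TNFAIP3 and NFKBIA rose. In siSMRT cells NFKB1, REL and NFKBIE fell and TNFAIP3, NFKBIB and NFKB2 rose, each by 1 probe. With limma and Benjamini-Hochberg adjustment over 14801 probes (called at an adjusted p under 0.05), 3 member probes of 11 were higher and 1 was lower in siCtl cells, where CDDP changed 34.2% of all probes (16.7% higher and 17.6% lower). The counts were 2 higher and 1 lower in siNCoR cells, against 38.0% of all probes (18.9% higher and 19.1% lower), and 3 higher and 3 lower in siSMRT cells, against 40.0% (20.4% higher and 19.6% lower). The share of member probes called was thus near that of the array in siCtl and siNCoR cells, and 6 of 11 in siSMRT cells, REL included, whose probe passed the floor only through untreated siSMRT arrays and so had to be high there. In a fit that takes same-numbered replicates as a block, the counts become 5 higher and 1 lower in siCtl cells (41.6% of all probes), 6 and 2 in siNCoR cells (45.7%), and 4 and 3 in siSMRT cells (48.0%). The 3 CDDP comparisons use different arrays, and their values for each member stand side by side in the plot of CDDP differences.

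**Figure D2:**
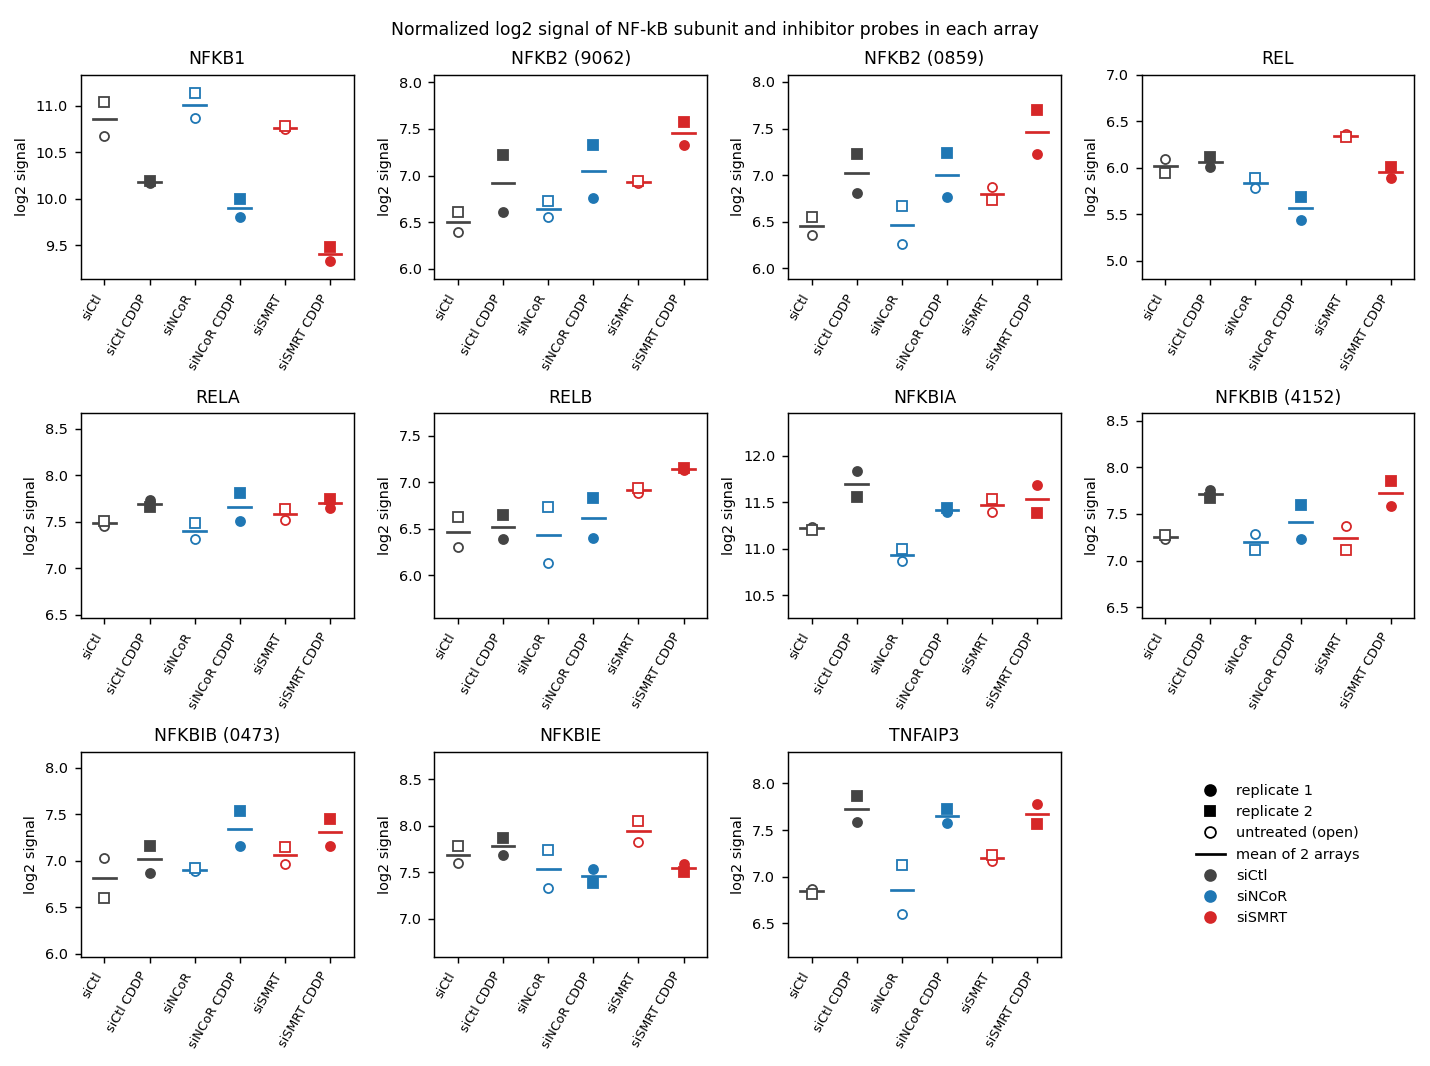
Normalized log2 signal (y axis) of the 11 member probes past the floor in each of the 12 arrays, by siRNA and treatment (x axis, untreated groups named by siRNA alone). Circles are replicate 1, squares replicate 2, open symbols untreated, filled symbols CDDP and bars the mean of 2 arrays, with the last digits of the probe number given where a gene has 2 probes. NFKB1 is lower in all 6 CDDP arrays than in all 6 untreated arrays, and TNFAIP3 is higher in all 6.

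NFKB1 encodes p105, which is processed to the p50 subunit and also acts as an IkB. In untreated siCtl cells its log2 signals were 10.68 and 11.04 in replicates 1 and 2, and with CDDP they were 10.17 and 10.19. In siNCoR cells they were 10.87 and 11.14 untreated and 9.80 and 10 with CDDP. In siSMRT cells they were 10.75 and 10.78 untreated and 9.33 and 9.48 with CDDP. No CDDP array reached any untreated array, and the CDDP groups did not overlap each other, with siSMRT lowest (mean 9.40), then siNCoR (9.90) and siCtl (10.18), whereas the untreated groups at 10.76 to 11.01 overlapped. NFKB1 fell by 0.68 in siCtl cells (SE 0.135, limma adjusted p = 0.00227), a 1.60-fold fall. In siNCoR cells it fell by 1.11 (adjusted p = 7.46e-05), and in siSMRT cells by 1.36 (adjusted p = 1.63e-05), which is 2.57-fold. In the RNA of a whole culture, fewer cells with a transcript and less of it per cell cannot be told apart. These falls passed under all 9 other processing settings and without any 1 of the 12 arrays.

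The other subunits moved less. NFKB2 encodes p100, the precursor of p52 in the alternative pathway and itself an inhibitor of RELB. Its probe ILMN_2390859 read 6.36 and 6.55 in untreated siCtl cells and 6.81 and 7.23 with CDDP. In siNCoR cells it read 6.26 and 6.67 untreated and 6.76 and 7.24 with CDDP, and in siSMRT cells 6.87 and 6.73 untreated and 7.23 and 7.70 with CDDP. Within each siRNA both CDDP arrays lay above both untreated arrays. The difference passed in siSMRT cells (0.66, SE 0.207, limma adjusted p = 0.0235) and not in siCtl (0.57, adjusted p = 0.0509) or siNCoR cells (0.53, adjusted p = 0.0619), both of which pass with the replicate block (0.00456 and 0.00654). The siCtl difference also passes with no background correction (0.0476), an offset of 50 (0.0483), the authors' values (0.0495) or a fit on the arrays compared alone (0.0247). The siSMRT call is lost without siSMRT untreated replicate 1, siSMRT untreated replicate 2 or siSMRT CDDP replicate 2 (adjusted p 0.0626, 0.109 and 0.201, the last with a difference of 0.43). The other NFKB2 probe, ILMN_1799062, gave 0.42, 0.40 and 0.52 in siCtl, siNCoR and siSMRT cells, none passing (0.136, 0.143 and 0.0588) in the main fit and all with the block (0.0223, 0.0255 and 0.00588). Its siSMRT difference also passes with no background correction (0.0465), an offset of 50 (0.0438) or a fit on the arrays compared alone (0.00879). Over the 12 arrays the NFKB2 probes correlated at r = 0.949, a description of arrays that share groups.

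REL, RELA and RELB encode the subunits with a transactivation domain. REL read 6.36 and 6.33 in untreated siSMRT cells and 5.89 and 6.01 with CDDP, without overlap, and fell by 0.40 (SE 0.109, limma adjusted p = 0.0134). The untreated siSMRT arrays are those through which the REL probe passed the floor, and with no floor the fall has an adjusted p = 0.0686. It is also lost without siSMRT untreated replicate 1 (0.0684) or siSMRT CDDP replicate 1 (0.0878). In siCtl cells REL read 6.09 and 5.94 untreated and 6.01 and 6.11 with CDDP, overlapping values that differ by 0.04 (adjusted p = 0.803). In siNCoR cells the 5.78 and 5.89 of the untreated arrays lay above the 5.44 and 5.69 with CDDP (-0.27, adjusted p = 0.0725, and 0.0466 with the replicate block). RELA, the main transactivating partner of p50, stayed between 7.32 and 7.81 on all 12 arrays. Its CDDP differences were 0.21, 0.26 and 0.12 in siCtl, siNCoR and siSMRT cells. The 0.26 of siNCoR cells did not pass in the main fit and passes with the block (adjusted p = 0.0946 without and 0.0463 with it). Without siNCoR CDDP replicate 1, which leaves 1 array in that arm, the siNCoR difference was 0.41. RELB, the partner of p52, differed by 0.05, 0.19 and 0.23 with CDDP and passed in no siRNA group with or without the block, its 95% interval in siCtl cells running from -0.37 to 0.47.

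Among the inhibitors, TNFAIP3 encodes A20, a ubiquitin-editing enzyme that ends signalling upstream of the IkB kinases. It read 6.87 and 6.81 in untreated siCtl cells and 7.59 and 7.87 with CDDP. In siNCoR cells it read 6.60 and 7.12 untreated and 7.58 and 7.73 with CDDP, and in siSMRT cells 7.17 and 7.23 untreated and 7.78 and 7.56 with CDDP. The 3 CDDP groups overlapped one another with means of 7.65 to 7.73, while among the untreated groups siSMRT (mean 7.20) lay above siCtl and siNCoR (6.84 and 6.86). TNFAIP3 rose by 0.89 in siCtl cells (SE 0.158, limma adjusted p = 0.00105), 1.85-fold. In siNCoR cells the rise was 0.79 (0.00224) and in siSMRT cells 0.47 (0.0325). The siCtl and siNCoR rises passed under every setting and without any 1 array. The siSMRT rise is lost with median scaling (0.111), with no floor (0.0838) and without siSMRT untreated replicate 1 (0.133), siSMRT untreated replicate 2 (0.0819) or siSMRT CDDP replicate 1 (0.180).

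NFKBIA encodes IkBa, the inhibitor that NF-kB resynthesizes fastest. Its log2 signals were 11.24 and 11.20 in untreated siCtl cells and 11.84 and 11.56 with CDDP. In siNCoR cells they were 10.87 and 11 untreated and 11.40 and 11.44 with CDDP. Both pairs of groups were separate, and NFKBIA rose by 0.47 in siCtl cells (SE 0.126, limma adjusted p = 0.0125) and by 0.48 in siNCoR cells (adjusted p = 0.0108). In siSMRT cells it read 11.40 and 11.54 untreated and 11.69 and 11.38 with CDDP. These groups overlapped, the same-numbered pairs went opposite ways (0.29 and -0.17), and the difference was 0.06 (95% interval -0.21 to 0.34, adjusted p = 0.718). The siCtl call is lost without siCtl untreated replicate 2 (0.0602) or siCtl CDDP replicate 1 (0.113). The siNCoR call is lost without siNCoR untreated replicate 1 (0.0770) or siNCoR CDDP replicate 2 (0.0564) and with median scaling (0.0615).

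NFKBIB and NFKBIE encode IkBb and IkBe, which differ from IkBa in how quickly they are degraded. The NFKBIB probe ILMN_1674152 read 7.23 and 7.27 in untreated siCtl cells and 7.76 and 7.67 with CDDP, and it rose by 0.47 (limma adjusted p = 0.0235). In siSMRT cells it read 7.37 and 7.11 untreated and 7.59 and 7.85 with CDDP, and it rose by 0.48 (adjusted p = 0.0186). Neither pair of groups overlapped, whereas in siNCoR cells the 7.29 and 7.11 untreated and 7.23 and 7.60 with CDDP did (0.21, adjusted p = 0.261). The second NFKBIB probe, ILMN_1690473, differed by 0.20, 0.44 and 0.24 in siCtl, siNCoR and siSMRT cells and passed in none, with the largest of these in the group where the first probe did not pass (adjusted p = 0.0600, and 0.0326 with the block). The probes correlated at r = 0.451 over the 12 arrays, so the gene's rise rests on 1 probe.

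The siCtl call of NFKBIB is lost with median scaling (difference 0.27, adjusted p = 0.263), with no floor (0.0708) and without any of the 4 siCtl arrays (0.101 and 0.0688 without untreated replicates 1 and 2, 0.110 and 0.0591 without CDDP replicates 1 and 2). Its siSMRT call is lost with median scaling (0.0869), with no floor (0.0558) and without siSMRT untreated replicate 2 (0.138) or siSMRT CDDP replicate 2 (0.152). NFKBIE read 7.83 and 8.05 in untreated siSMRT cells and 7.59 and 7.50 with CDDP, without overlap, and fell by 0.40 (SE 0.141, limma adjusted p = 0.0424). In siCtl and siNCoR cells its groups overlapped, with differences of 0.09 (0.656) and -0.07 (0.719). The siSMRT fall is lost with no floor (0.126) and without any of the 4 siSMRT arrays (0.0502 and 0.232 without untreated replicates 1 and 2, 0.0868 and 0.176 without CDDP replicates 1 and 2).

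**Figure D3:**
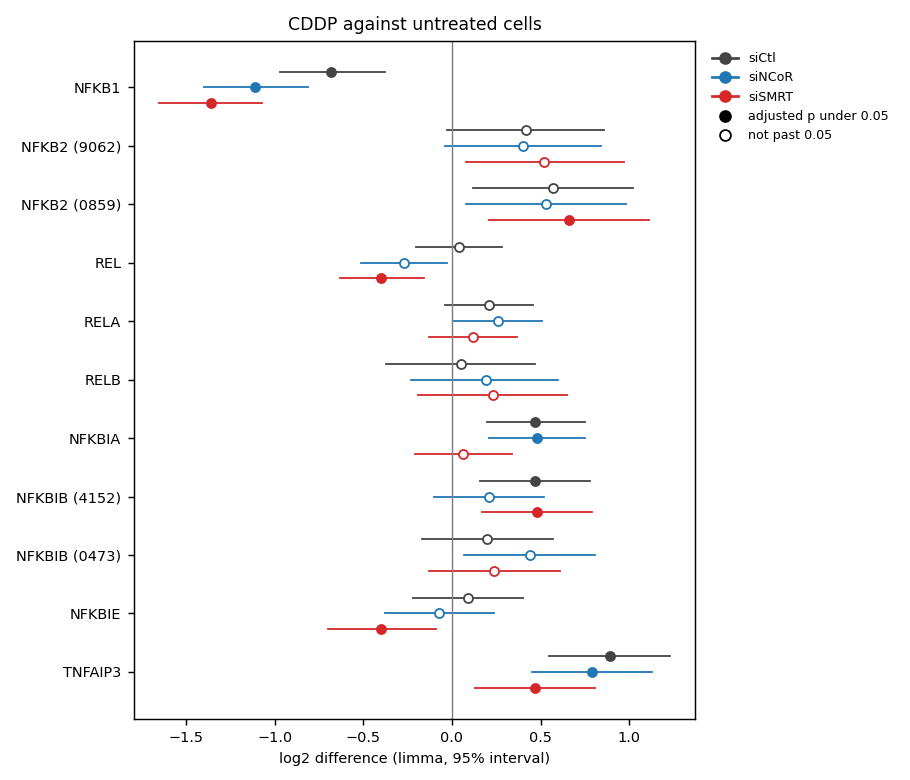
Log2 difference between CDDP and untreated cells (x axis) for each member probe (y axis) in siCtl, siNCoR and siSMRT cells, with 95% intervals from limma and filled points where the adjusted p is under 0.05. The 3 NFKB1 intervals lie below 0 and the 3 TNFAIP3 intervals above it, and the NFKBIA interval crosses 0 only in siSMRT cells.

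The siRNA comparison without drug asks what each co-repressor does at rest. Among the 11 member probes, 0 were called between untreated siSMRT and siCtl cells, where 14.4% of all probes were. An unadjusted limma p under 0.05 was found for 3 of the 11 (REL, RELB and TNFAIP3), beside 4220 of the 14801 probes tested. RELB read 6.89 and 6.94 in untreated siSMRT cells against 6.31 and 6.63 in siCtl cells, without overlap (0.44, SE 0.192, limma adjusted p = 0.149). REL read 6.36 and 6.33 against 6.09 and 5.94 (0.33, adjusted p = 0.0670), but its probe was kept only through these siSMRT arrays, so the difference is given as a description. TNFAIP3, at 7.17 and 7.23 against 6.87 and 6.81, differed by 0.36 (adjusted p = 0.156). With the replicate block RELB (0.0256) and NFKB2 ILMN_1799062 (0.43, 0.0337) pass as higher, as does REL (0.0363) under the limit just given, against 21.7% of all probes. NFKB1 gave -0.10 (95% interval -0.39 to 0.20) and RELA 0.10 (-0.15 to 0.35). The median difference over the 11 probes was 0.25, beside 0.01 over all probes, which median scaling moves by -0.13. The 11 include the REL probe, kept only through the untreated siSMRT arrays, so this median is a description too.

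Between untreated siNCoR and siCtl cells 0 member probes were called by limma, with or without the block, against 4.47% of all probes (8.68% with the block). The only unadjusted p under 0.05 among them was that of NFKBIA, at 10.87 and 11 in siNCoR cells and 11.24 and 11.20 in siCtl cells (-0.28, SE 0.126, adjusted p = 0.255). Of the 14801 probes tested, 2713 had an unadjusted p under 0.05. These NFKBIA groups did not overlap, and untreated siNCoR was the lowest of the 6 groups for this gene.

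With CDDP in both arms, NFKB1 was lower and RELB higher in siSMRT than in siCtl cells, 1 and 1 of 11 probes against 15.9% of all probes (7.41% higher and 8.44% lower). The NFKB1 signals already given, 9.33 and 9.48 against 10.17 and 10.19, fell by 0.78 (SE 0.135, limma adjusted p = 0.00337), a 1.71-fold difference that passed under all 9 settings and without any 1 array. RELB read 7.13 and 7.15 in siSMRT cells and 6.39 and 6.65 in siCtl cells with CDDP. It was higher by 0.62 (SE 0.192, adjusted p = 0.0461), and over the 6 groups siSMRT with CDDP (mean 7.14) and siSMRT untreated (6.91) were the top groups, each apart from its neighbours, while the other 4 groups at 6.43 to 6.62 overlapped. The RELB call is lost with no floor (0.101), without siCtl CDDP replicate 1 (0.239) or 2 (0.0692), without siSMRT untreated replicate 1 (0.0601) or 2 (0.0614), and without siSMRT CDDP replicate 1 (0.144) or 2 (0.157). With the block both NFKB2 probes pass as well, at 0.54 (adjusted p = 0.0944 without and 0.0113 with it) and 0.44 (0.166 and 0.0308), which makes 3 higher and 1 lower against 24.3% of all probes.

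Between siNCoR and siCtl cells with CDDP, 1 member probe of 11 was called, against 5.39% of all probes (2.79% higher and 2.60% lower, and 11.4% called with the block). An unadjusted limma p under 0.05 was found for 3 of the 11, beside 3104 of the 14801 probes tested. REL read 5.44 and 5.69 in siNCoR cells and 6.01 and 6.11 in siCtl cells, without overlap, and was lower (-0.49, SE 0.109, limma adjusted p = 0.0244). Both groups lie under the floor for this probe. The call is lost with a normexp offset of 50 (0.0601), median scaling (0.0856), the authors' processed values (0.0699), no floor (0.107) and a fit on the arrays compared alone (0.110), where the offset and the authors' values give a difference of -0.31, and without siCtl CDDP replicate 1 (0.0676) or 2 (0.122) or siNCoR CDDP replicate 1 (0.113). NFKB1 was at -0.28 in this comparison (adjusted p = 0.259), NFKBIE at -0.32 (0.227) and NFKBIA at -0.28 (0.233).

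**Figure D4:**
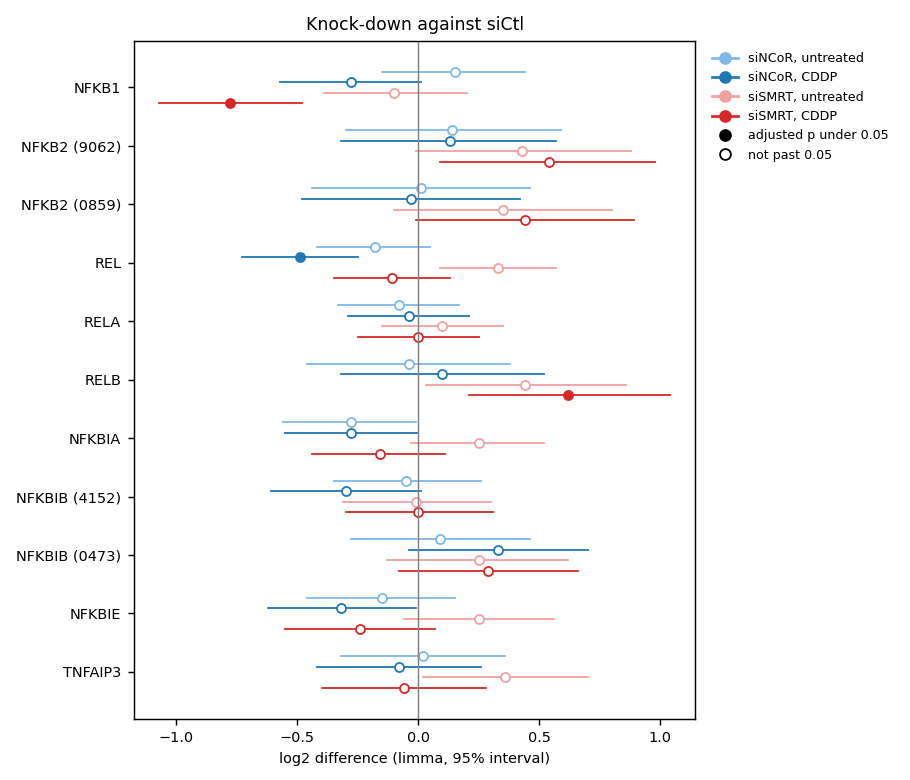
Log2 difference between knock-down and siCtl cells (x axis) for each member probe (y axis), untreated (light) and with CDDP (dark), with 95% intervals from limma and filled points where the adjusted p is under 0.05. The 3 filled points are NFKB1 and RELB for siSMRT with CDDP and REL for siNCoR with CDDP.

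Whether a knock-down alters the CDDP response itself was tested as a difference of differences. Of the 11 member probes 0 passed in siSMRT against siCtl, siNCoR against siCtl or siSMRT against siNCoR cells, with or without the replicate block, and of all probes 0% passed in each without it (0.00676% with it for siSMRT against siCtl). At an unadjusted p under 0.05 there were 4, 1 and 1 member probes, beside 1244, 648 and 503 of all probes. For NFKB1 the response in siSMRT cells was more negative than in siCtl cells by -0.68 (SE 0.191, 95% interval -1.10 to -0.27, limma adjusted p = 0.437), with -0.92 and -0.45 in the same-numbered pairs. NFKBIA gave -0.41 (95% interval -0.80 to -0.02, adjusted p = 0.578), with -0.30 and -0.52 in the pairs, NFKBIE -0.49 (0.553) and REL, under the same limit of its floor, -0.44 (0.513). TNFAIP3 gave -0.42 (95% interval -0.91 to 0.07, adjusted p = 0.631). The calls of NFKBIA in siCtl and siNCoR but not in siSMRT cells, and of REL, NFKBIE and NFKB2 in siSMRT cells but not in siCtl cells, were therefore not shown to differ between siRNAs.

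Genes that act around the members were counted from 3 lists by symbol. Known NF-kB targets, 22 genes with 30 probes past the floor, gave 17 probes higher and 2 lower with CDDP in siCtl cells (63.3% called, beside 34.2% of all probes), with a median of 0.49 beside 0.04 over all probes. Of the 17, 3 were under the floor in untreated siCtl cells and were kept through other groups. One is IL1A, a proinflammatory cytokine, whose normalized intensities were 57.4 to 89.9 in the untreated arrays and 154 to 347 with CDDP. The transcription factor IRF1, past the floor in all 6 groups, rose by 1.78 (limma adjusted p = 2.55e-06), while both probes of the anti-apoptotic gene BCL2L1 fell (by 0.64 and by 0.67). In siNCoR cells the target counts were 20 higher and 3 lower (76.7%, beside 38.0% of all probes), and in siSMRT cells 15 higher and 2 lower (56.7%, beside 40.0%). Of the 20, 3 were under the floor in untreated siNCoR cells, and of the 15, 2 were under it in untreated siSMRT cells. The lists were chosen with earlier results of these data known, so these shares are descriptions. Between untreated siSMRT and siCtl cells 8 target probes of 5 genes (IL1A, CXCL8, CCL2, CD83 and SOD2) were higher and 0 lower (26.7% called, beside 14.4% of all probes), with a median of 0.24. The IL1A probe was under the floor in both of these groups and was kept only through the CDDP groups, and the other 7 probes were past it. The superoxide dismutase SOD2 (0.79, adjusted p = 0.000647) and CD83 (0.73, 9e-04) had the smallest p. Between untreated siNCoR and siCtl cells 1 target probe was higher (3.33% called, beside 4.47% of all probes). That probe was under the floor in both groups. The targets called in untreated siSMRT cells stand beside 0 member probes called there without the replicate block. With the block 10 target probes were higher there, and 3 member probes, REL under its limit among them, beside 21.7% of all probes called.

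Kinases and adaptors upstream of NF-kB, 30 genes with 39 probes, moved both ways with CDDP in siCtl cells, 8 probes higher and 7 lower, with a median of -0.08, and the 38.5% called were near the 34.2% of all probes. Of the 7, 1 was under the floor in siCtl cells with CDDP and was kept through other groups. The Toll-like receptor adaptor MYD88 rose by 0.82 and the receptor LTBR, which signals to p100 processing, by 0.58, while ERC1, a regulatory subunit of the IkB kinase complex, fell by 1.66 and the paracaspase MALT1 by 0.67. In untreated siSMRT against siCtl cells 3 were higher and 2 lower (12.8%, beside 14.4% of all probes), with LTBR at 0.59 and TRAF3, which restrains the alternative pathway, at 0.60, and with UBE2N, a ubiquitin-conjugating enzyme, at -0.95 and ATM at -0.46. The other ATM probe past the floor gave -0.34 and was not called (limma adjusted p = 0.0535). Other IkB-type, nuclear and feedback regulators, 14 genes with 17 probes, gave 3 higher and 3 lower with CDDP in siCtl cells, 35.3% called beside 34.2% of all probes. Among them the nuclear IkB gene NFKBIZ rose by 1.58 and the repressor NKRF by 0.66, while the ubiquitin ligase ITCH, a partner of A20, fell by 1.32 and TNFAIP8 by 1.18. The TNFAIP8 probe, 1 of the 3 lower, passed the floor only through the 3 untreated groups. Its normalized intensities were 165 to 215 there and 82.6 to 110 with CDDP. It had to be high in untreated cells, so its fall is given as a description. Between untreated siSMRT and siCtl cells limma called 0 of the 17, with 3 at an unadjusted p under 0.05, beside 4220 of the 14801 probes tested. With the replicate block TNIP1 (0.33, adjusted p = 0.109 without and 0.0350 with it) and ITCH (-0.33, 0.104 and 0.0293) pass. These are 1 higher and 1 lower of the 17, where 21.7% of all probes were called with the block. Of the probes called over the whole array with CDDP in siCtl cells, 48.7% were higher, and 25.4% with median scaling (45.8% and 14.6% between untreated siSMRT and siCtl cells).

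Over the 12 arrays the NFKB1 signal ran against that of TNFAIP3 (Pearson r = -0.791), NFKB2 ILMN_2390859 (-0.760) and NFKBIB ILMN_1674152 (-0.712), and the TNFAIP3 signal ran with RELA and NFKB2 ILMN_2390859 (both 0.813). REL ran most closely with NFKBIE (0.712). These 12 arrays share treatments and siRNAs, and same-numbered replicates share deviations from their group means. The values therefore describe how the arrays line up, by group and by replicate. The probes most like NFKB1 among other named genes were those of ZEB1-AS1 (r = 0.988), HOMER1 (0.979) and CHD1 (0.975). For NFKBIA they were CDCA5 (0.957), RBM44 (0.944) and ZNF33B (0.936), and for TNFAIP3 TIMM22 (0.965), PIDD1 (0.954) and SLC1A5 (0.954).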

How the data were processed

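The 12 one-colour Illumina BeadChip arrays were deposited as linear probe intensity values exported from BeadStudio per the labels, without background subtraction (lowest signals 30.4 to 38.9) or scaling between arrays. The authors' own processed intensity table, which their methods attribute to Corgon and multi-loess, served as an alternative. The methods' filter on presence p was not applied, since detection p values are not in the tables used here. Background was corrected with normexp (offset 16), followed by quantile normalization and log2. Probes were kept where the quantile-normalized, uncorrected signal exceeded 100 in the 2 arrays of any 1 group (14801 of 48803). Of all probes, 27578 have 1 gene in the probe table, 13 several and 21212 none. limma 3.58.1 under R 4.3.3 was fitted with 1 coefficient per group (6 residual degrees of freedom), and p values were adjusted over all probes kept in each of 10 comparisons. Tests are two-sided. The number of arrays limits the precision.

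Alternatives were no background correction, an offset of 50, median scaling of each array over all its probes, the authors' values, no floor, the floor in at least 1 array, 1 probe per gene (that of highest mean signal), the replicate number as a block, a fit on the arrays compared alone, an adjusted p under 0.2, and leaving out each array. The label of 1 array in each group ends in the number 2, and the array without a number was taken as replicate 1. Same-numbered replicates were taken as pairs: their deviations from the group means correlate at 0.207 to 0.407 in all 15 pairs of groups, and the study describes them as biological replicates. Replicate arrays correlate at 0.9939 to 0.9957 and no probe has the same deposited signal in both. Promoter windows come from RefSeq (GRCh38.p14). The fit was tested on simulated data. A check of the siRNA targets is not reported here. All member probes are named, and for each list the 2 probes with the smallest p in each direction with CDDP in siCtl cells and in untreated siSMRT cells. Likeness names 3 probes for each of NFKB1, NFKBIA and TNFAIP3. Members and lists were chosen with earlier results of these data known. Figures used matplotlib 3.10.9 and pandas 2.3.3 under Python 3.11.15.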

Additional observations from a re-analysis of the deposited data

How the results depend on the processing

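No change of processing turned the direction of a member probe that passed, and the 4 NFKB1 calls and the TNFAIP3 calls in siCtl and siNCoR cells passed under all 9 settings and without any 1 of the 12 arrays. Only the larger moves in the count of member probes called are given here. Smaller ones are left out, among them the losses with median scaling within siCtl, siNCoR and siSMRT cells named above. With CDDP in siCtl cells it was 4 and became 7 at an adjusted p under 0.2. With CDDP in siNCoR cells it was 3 and became 8 with the replicate block and 8 at 0.2. With CDDP in siSMRT cells it was 6 and became 2 with no floor, where 48803 probes were tested. Between untreated siSMRT and siCtl cells it was 0 and became 3 with the replicate block, 1 with a fit on the arrays compared alone and 4 at 0.2. Between siSMRT and siCtl cells with CDDP it was 2 and became 1 with no floor, 4 with the block and 4 at 0.2. Between siNCoR and siCtl cells with CDDP it was 1 and became 0 with an offset of 50, median scaling, the authors' values, no floor and a fit on the arrays compared alone. Shares of all probes called under these settings are given above only for the replicate block. The counts under the other settings therefore cannot be set against the whole array, and their moves need not be particular to the members. The cause of these moves was not tested. The replicate block, which takes the pairing into account, ended no call.

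Without 1 array at a time the counts ran from 2 to 5 with CDDP in siCtl cells, 2 to 7 in siNCoR cells, 2 to 7 in siSMRT cells, 0 to 1 between untreated siSMRT and siCtl cells, 1 to 2 between siSMRT and siCtl cells with CDDP and 0 to 1 between siNCoR and siCtl cells with CDDP, and stayed at 0 between untreated siNCoR and siCtl cells and for the 3 differences of responses. Where an arm was left with 1 array, its spread was taken from the other groups. Shares of all probes called in these fits are not given, so the ranges cannot be set against the whole array. Median scaling moved the median of all probes by -0.15 with CDDP in siNCoR cells, by -0.13 between untreated siSMRT and siCtl cells, and by 0.12 and 0.17 in the response differences of siSMRT from siCtl and from siNCoR cells. It moved the share of higher probes among those called from 49.8% to 19.0% with CDDP in siNCoR cells and from 51.8% to 37.1% between siNCoR and siCtl cells with CDDP. For all members but NFKB1 and NFKBIA, signals near the floor limit what 2 arrays a group can show.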
